A study of Mus musculus with 6 samples.

Results

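The Krüppel-like factor (KLF) genes described here are Klf2, Klf3, Klf4, Klf5, Klf6, Klf7, Klf9, Klf10, Klf13 and Klf15, each measured by the probe sets that the array's annotation assigns to that gene alone. They make up 10 of the 12393 genes measured and 27 of the 22626 probe sets tested, from 1 probe set each for Klf2, Klf10 and Klf15 to 7 for Klf9. RNA came from a mouse cell line called PPP3R1, a name it shares with the gene of calcineurin's regulatory B subunit, but the labels do not tell what, if anything, was done to that gene. By their titles, 3 arrays held starved PPP3R1 cells and 3 held control PPP3R1 cells, which the series design places in normal medium. The growth and treatment protocols instead name wild-type MEFs (embryonic fibroblasts) as the control, so starvation and cell line cannot be told apart if that text is right. Starvation lasted 6 h, a time the titles do not give, and the composition of its medium is not stated. The titles call the arrays biological replicates, but whether these were separate cultures is not stated. The p-values therefore reflect only the scatter of these arrays, which may be technical.

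KLF proteins are transcription factors that share a C-terminal zinc finger domain, which binds CACCC boxes and GC-rich sites, and that differ in their N-terminal parts. Klf2, Klf4, Klf5, Klf6 and Klf7 belong to the branch that recruits acetyltransferases and often activates transcription. Klf3 represses through the corepressor CtBP, and Klf9, Klf10 and Klf13 bind the corepressor Sin3. Klf15 stands outside these branches and is known for its control of amino acid, glucose and lipid metabolism. In fibroblasts several members are early response genes, and members are known regulators of growth arrest, proliferation and adipocyte differentiation.

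Promoters are printed for Klf2 and Klf6, whose transcripts rose, and for Klf9 and Klf15, whose transcripts fell, because they hold the MEF2 and FoxO matches and an E-box on either side of the comparison. RefSeq's promoter table (GRCm38.p6) had 8 of the 10 genes, all but Klf5 and Klf10. The 250 bases before each start were searched on both strands for the CACCC box, for the GC box with the letters GGGCGG, for the E-box CACGTG, for the FoxO core site with the letters GTAAACA and for the MEF2 consensus. Capitals mark the matches, and no base of these 4 promoters lies in matches of 2 motifs.
Klf2, chr8:72318812-72319061, + strand: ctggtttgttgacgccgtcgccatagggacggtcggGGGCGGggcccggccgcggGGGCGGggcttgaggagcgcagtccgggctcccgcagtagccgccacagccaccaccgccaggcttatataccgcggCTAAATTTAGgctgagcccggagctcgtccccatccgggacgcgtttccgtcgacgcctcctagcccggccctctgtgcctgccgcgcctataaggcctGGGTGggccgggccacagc
Klf6, chr13:5861239-5861488, + strand: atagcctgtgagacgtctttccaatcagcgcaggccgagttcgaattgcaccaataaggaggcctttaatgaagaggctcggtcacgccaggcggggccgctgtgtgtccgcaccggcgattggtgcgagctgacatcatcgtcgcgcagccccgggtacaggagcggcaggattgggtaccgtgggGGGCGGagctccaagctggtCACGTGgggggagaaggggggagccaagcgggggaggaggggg
Klf9, chr19:23140976-23141225, + strand: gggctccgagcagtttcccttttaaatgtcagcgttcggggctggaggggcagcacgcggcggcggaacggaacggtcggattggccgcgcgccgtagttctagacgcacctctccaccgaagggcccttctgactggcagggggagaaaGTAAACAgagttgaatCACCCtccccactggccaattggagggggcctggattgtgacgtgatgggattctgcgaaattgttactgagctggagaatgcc
Klf15, chr6:90462326-90462575, + strand: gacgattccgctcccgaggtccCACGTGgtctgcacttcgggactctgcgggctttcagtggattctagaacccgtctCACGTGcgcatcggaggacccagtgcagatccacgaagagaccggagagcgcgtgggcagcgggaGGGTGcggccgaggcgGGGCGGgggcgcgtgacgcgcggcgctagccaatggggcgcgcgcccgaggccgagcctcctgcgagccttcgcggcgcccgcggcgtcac
Of the 8 promoters, only that of Klf2 matched the MEF2 consensus, 118 bases before the start, as did 2.92% of all 32851 promoters in the table. The E-box occurred at 2 places in Klf15 and at 1 place each in Klf4 and Klf6, and in 6.02% of all promoters. The FoxO core site occurred in Klf9 alone of the 8 and in 3.17% of all promoters. GC boxes were present in 7 of the 8 (all but Klf9; 32.7% of all promoters) and CACCC boxes in 6 of the 8 (all but Klf4 and Klf6; 52.0% of all promoters). A match describes letters and does not show a bound site.

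Levels are RMA values on a log2 scale. Changes are starved minus control on that scale, given with the standard error (SE) from limma, and n was 3 arrays per group. A probe set was called when limma's p, adjusted over all probe sets tested, was under 0.05, and a level under 5 was taken as dim. Array medians lay between 6.74 and 6.78, and control replicate 3 was apart from the rest on the second principal component, which carried 5.81% of the variance.

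Fibroblast markers were high, with a mean over the 13 measured of 11.6 on each control array and 11.5 on each starved array, although Thy1 was at 4.80 in control cells. Of these, 4 were called higher and 4 lower, with the largest change in Lum (-2.05 ± 0.06). All 8 endothelial and 7 of 8 epithelial markers were dim in both groups, and 1 of each list was called higher. Of 10 leukocyte markers 5 were dim in both groups, among them Ptprc at 3.07 in control cells, but Cd14 stood at 8.34 and fell by 0.32 ± 0.06, while Cd68 rose by 0.43 ± 0.06 and Lyz2 by 0.24 ± 0.08. Of 8 muscle markers 3 were dim in both groups and 2 rose, Acta2 from 13.1 by 0.64 ± 0.05 and Cnn1 from 4.89 by 0.82 ± 0.07. Of 7 neural markers 4 were dim in both groups and 2 rose, Map2 by 0.74 ± 0.09 and Tubb3 by 0.46 ± 0.09. The mean of the muscle list was 5.94 to 6.03 on control and 6.09 to 6.16 on starved arrays, that of the neural list 4.40 to 4.45 and 4.65, and that of the leukocyte list 5.01 to 5.21 and 5.05 to 5.10. The part of these markers in the KLF changes was not tested.

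On starvation Klf2, Klf4, Klf5, Klf6 and Klf7, described above as of the activating branch, rose in their brightest probe sets, by 0.27 to 1.46. Klf3 and Klf10 rose too. Klf15 fell by 1.03 ± 0.09 and Klf9 by 0.19 ± 0.06, and Klf13 did not pass the test. Taken by the probe set of highest mean, 9 of 10 genes were called, 7 higher and 2 lower. Over all genes 40.8% were called, 20.8% higher and 20.1% lower. The median change of the 10 genes was 0.41, against -0.01 over all genes, and their median absolute change was 0.59, against 0.16. Of the 27 probe sets 19 were called (39.5% of all probe sets were), 13 of them higher (20.3% of all) and 6 lower (19.2% of all). The groups did not overlap in 20 of the 27, against 50.4% of all probe sets, and 10 were called with a change of at least 0.5, against 14.1% of all. The genes were chosen with results of these data known, so these counts describe them and test nothing.

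**Figure D1:**
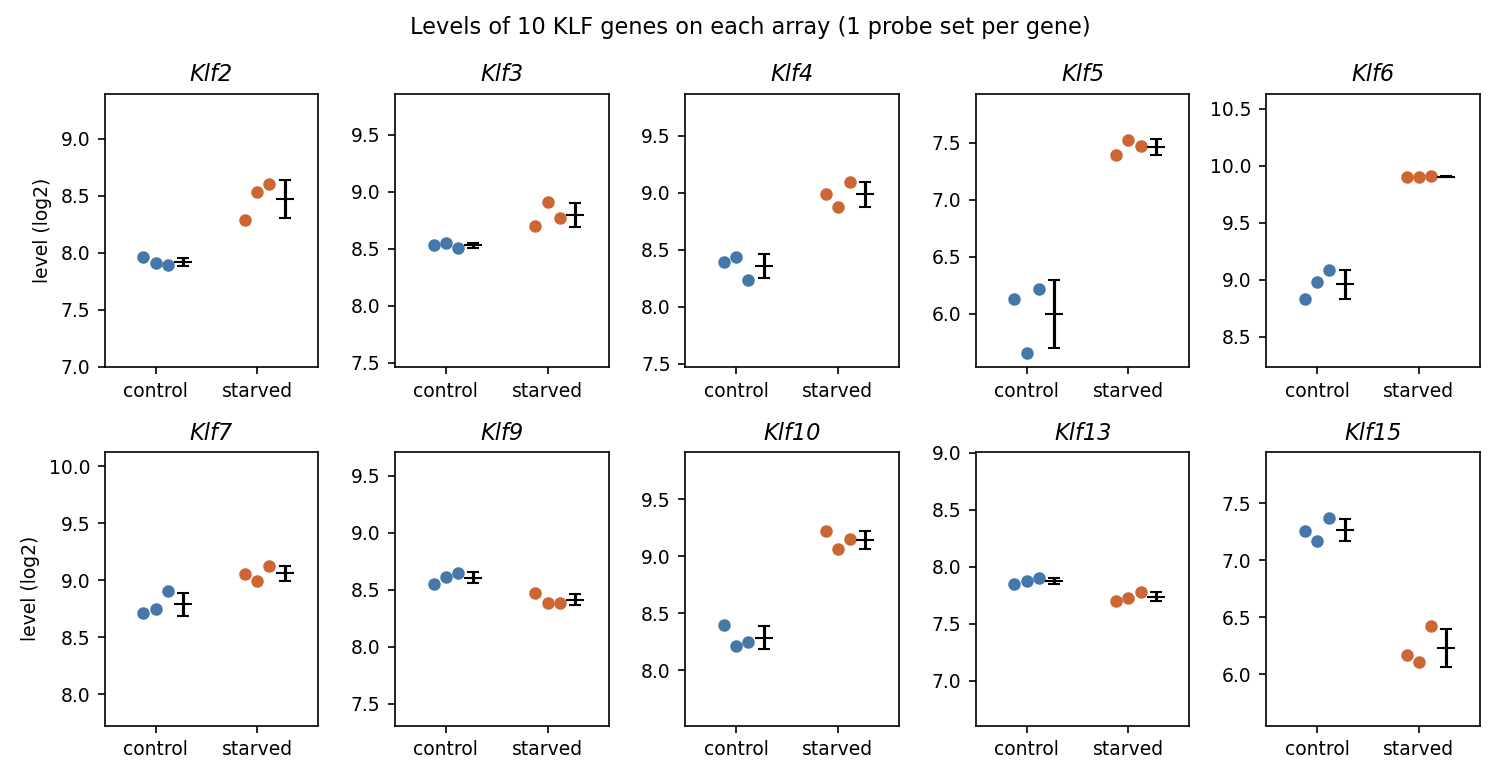
Level (log2) of the brightest probe set of each of the 10 KLF genes on the 3 control (blue) and 3 starved (orange) arrays, with the mean and SD of each group in black. The vertical axes differ in position but have the same length in log2 units, and the groups overlap in none of the 10 panels.

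The count of lower calls fell whichever array was left out. It was 6 with all arrays, 5 without starved replicate 1 and 4 without control replicate 1. It was 3 without control replicate 2, without control replicate 3 or without starved replicate 3, and 2 without starved replicate 2. The lower calls lost were of Klf9 probe sets. Over all probe sets lower calls fell as well, from 4344 to between 3693 and 3965. Higher calls numbered 12 or 13 whichever array was left out. In a culture, fewer cells with a transcript and less of it per cell cannot be told apart.

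By brightest probe sets Klf5 changed most of the 10 genes. It encodes a factor that promotes proliferation of epithelial and smooth muscle cells and acts early in adipocyte differentiation. Its brighter probe set read 6.13, 5.66 and 6.22 in control and 7.39, 7.52 and 7.48 in starved cells. Control replicate 2 was the lowest array, and each starved array was more than 1 unit above each control array. The rise was 1.46 ± 0.14, or 2.76-fold (adjusted p = 0.000105), and 0.963% of all probe sets changed by more. Without control replicate 2 the rise was 1.29 ± 0.07. The other Klf5 probe set was dim in both groups, at 3.33 ± 0.24 (SD, n = 3) in control and 3.47 ± 0.08 (SD, n = 3) in starved cells, and was not called (0.15 ± 0.11, adjusted p = 0.371). The mean of both probe sets, which takes in the dim one, rose by 0.80 ± 0.08 (adjusted p = 0.000175). Klf15 (a fall of 1.03 ± 0.09) and Klf10 (a rise of 0.86 ± 0.07) changed by more, but each has a single probe set. The order of these genes therefore depends on how probe sets are combined.

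Klf6, an early response gene also known as a growth suppressor, rose in all 3 of its probe sets. The brightest read 8.83, 8.98 and 9.08 in control and 9.90, 9.90 and 9.91 in starved cells. The starved arrays were nearly equal and all above the control arrays. The rise was 0.94 ± 0.07, or 1.92-fold (adjusted p = 4.24e-05). The probe set next in brightness read 8.25, 8.22 and 8.16 in control and 8.68, 8.56 and 8.63 in starved cells and rose by 0.41 ± 0.06 (adjusted p = 0.000905). The dimmest read 7.48, 7.45 and 7.48 in control and 8.21, 8.14 and 8.17 in starved cells and rose by 0.71 ± 0.05 (adjusted p = 3.45e-05). The groups did not overlap in any of the 3, although the sizes of the rise differed.

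Klf4, a reprogramming factor that is linked to growth arrest, rose in both of its probe sets. The brighter read 8.39, 8.43 and 8.24 in control and 8.99, 8.88 and 9.09 in starved cells. The other read 8.20, 8.09 and 8.21 in control and 8.83, 8.86 and 8.99 in starved cells. In both, all starved arrays were above all control arrays. The rises were 0.63 ± 0.08 (1.55-fold, adjusted p = 0.000486) and 0.73 ± 0.07 (1.66-fold, adjusted p = 9.23e-05).

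Klf2, best known as a flow-induced factor of endothelial cells and a factor of lymphocyte quiescence, had a single probe set. It read 7.96, 7.91 and 7.89 in control and 8.29, 8.53 and 8.60 in starved cells. The control arrays lay close together, and starved replicate 1 was lower than the other starved arrays but above all controls. The rise was 0.55 ± 0.09, or 1.47-fold (adjusted p = 0.00143), and it kept its call in each of the 17 alternatives run.

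Klf7, a widely expressed member studied mainly in neuronal development, rose less. Its brightest probe set read 8.71, 8.75 and 8.90 in control and 9.06, 8.99 and 9.13 in starved cells. The lowest starved array was just above the highest control array. The rise was 0.27 ± 0.07 (adjusted p = 0.0175). This call was lost on leaving out control replicate 1 (adjusted p = 0.0614), control replicate 2 (0.0588) or starved replicate 3 (0.0631), and without moderation of the spread (0.0546); its alternatives spanned 0.00109 to 0.0631. The dimmest Klf7 probe set read 7.01, 6.96 and 7.25 in control and 7.76, 7.61 and 7.67 in starved cells, with no overlap, and rose by 0.60 ± 0.09 (adjusted p = 0.000911). Another rose by 0.24 ± 0.06 (adjusted p = 0.0152), a call lost on leaving out starved replicate 2 (adjusted p = 0.0566; alternatives from 0.00549 to 0.0566). The remaining probe set had overlapping groups and was not called (0.09 ± 0.07, adjusted p = 0.357). The mean of all 4 rose by 0.30 ± 0.06 (adjusted p = 0.00387).

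**Figure D2:**
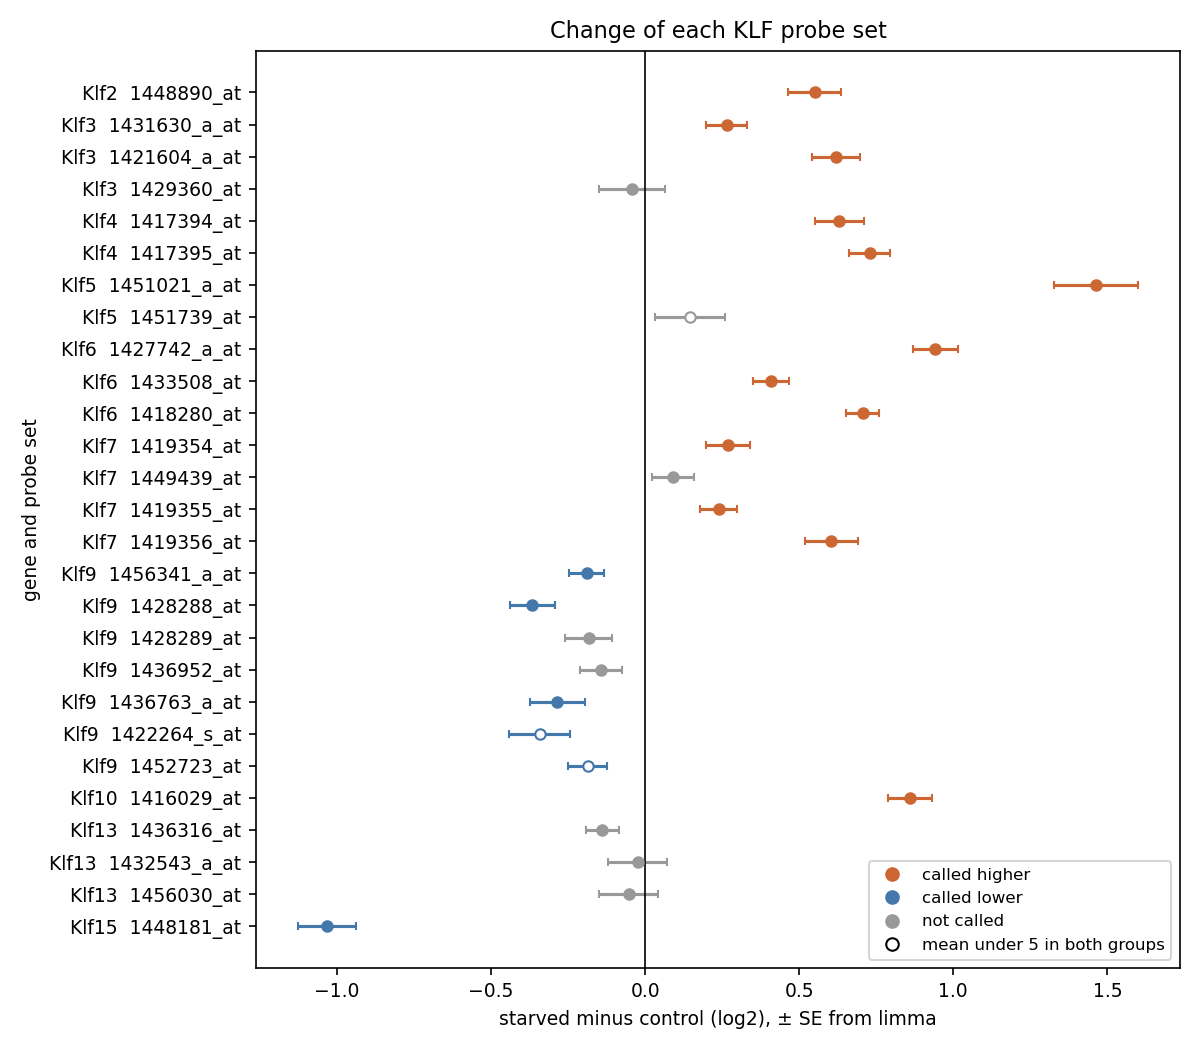
Change (starved minus control, log2) of each of the 27 KLF probe sets, with bars for the SE from limma and colours for the call (orange higher, blue lower, grey not called); open symbols are dim in both groups. The called probe sets of Klf2 to Klf7 and of Klf10 lie right of 0, and all 7 probe sets of Klf9 and that of Klf15 lie left of it.

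Klf3, a repressor that works through CtBP, had probe sets that differed from each other. The brightest read 8.53, 8.55 and 8.51 in control and 8.70, 8.91 and 8.77 in starved cells and rose by 0.26 ± 0.07 (adjusted p = 0.0146). The next read 7.71, 7.93 and 7.92 in control and 8.42, 8.45 and 8.56 in starved cells and rose by 0.62 ± 0.08 (adjusted p = 0.000468). Groups did not overlap in either. In the last they did, at 8.29, 8.17 and 8.04 in control and 7.91, 8.18 and 8.28 in starved cells, and it was not called (-0.04 ± 0.11, adjusted p = 0.806). An exact two-sided permutation test over the 6 arrays, applied to the brightest probe set minus each of the others, gave p = 0.1 both times, the smallest it allows. Among the 17 such pairs in the 7 genes with several probe sets, 8 reached p = 0.1 in the exact permutation test (0.212 after Benjamini-Hochberg adjustment), and no pair had calls in opposite directions.

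The Sin3-binding genes went different ways. Klf10, first described as an early gene of the TGF-beta response, read 8.40, 8.21 and 8.25 in control and 9.22, 9.06 and 9.15 in starved cells. All starved arrays were above all control arrays by more than the spread within either group. The rise was 0.86 ± 0.07, or 1.81-fold (adjusted p = 6.52e-05), from a single probe set.

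Klf9, which glucocorticoids and thyroid hormone induce in many tissues, was lower in starved cells in all 7 of its probe sets, and 5 of these were called. The brightest read 8.55, 8.61 and 8.64 in control and 8.47, 8.38 and 8.38 in starved cells. The groups did not overlap, but the gap between them was small. The fall was 0.19 ± 0.06 (adjusted p = 0.0313). This call was lost on leaving out control replicate 2 (adjusted p = 0.0810), control replicate 3 (0.0815), starved replicate 2 (0.0945) or starved replicate 3 (0.0992); its alternatives spanned 0.00598 to 0.0992. The next probe set read 8.36, 8.55 and 8.37 in control and 8.12, 8.08 and 7.98 in starved cells, again with no overlap. It fell by 0.37 ± 0.07 (adjusted p = 0.00469) and kept its call in each of the 15 alternatives run. The other 5 changed by -0.14 to -0.34. Of these, 3 were called, 2 of them dim in both groups, and each of the 3 calls was lost without some of the arrays. That of the dimmest (adjusted p = 0.0489) was lost whichever array was left out (0.0642 to 0.151). The mean of all 7 probe sets fell by 0.24 ± 0.05 (adjusted p = 0.00598).

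Klf13, a member known from lymphocytes and heart, was called in none of its 3 probe sets (1 of 3 had an unadjusted p under 0.05). The brightest read 7.85, 7.88 and 7.90 in control and 7.70, 7.73 and 7.78 in starved cells. These groups did not overlap, and the difference was -0.14 ± 0.05 (adjusted p = 0.0773). It passed with arrays centred on their medians (adjusted p = 0.0408), with dim probe sets left out (0.0362) and without moderation (0.0294); its alternatives spanned 0.0294 to 0.264. The others differed by -0.02 ± 0.09 and -0.05 ± 0.09, with overlapping groups.

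Klf15, known from liver and muscle as a factor raised by fasting and glucocorticoids, fell. Its single probe set read 7.25, 7.17 and 7.37 in control and 6.16, 6.11 and 6.42 in starved cells. Every starved array was lower than every control array. The fall was 1.03 ± 0.09, or 2.04-fold (adjusted p = 9.61e-05), and 2.83% of all probe sets changed by more. Over its 17 alternatives the change lay between -1.13 and -0.97.

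**Figure D3:**
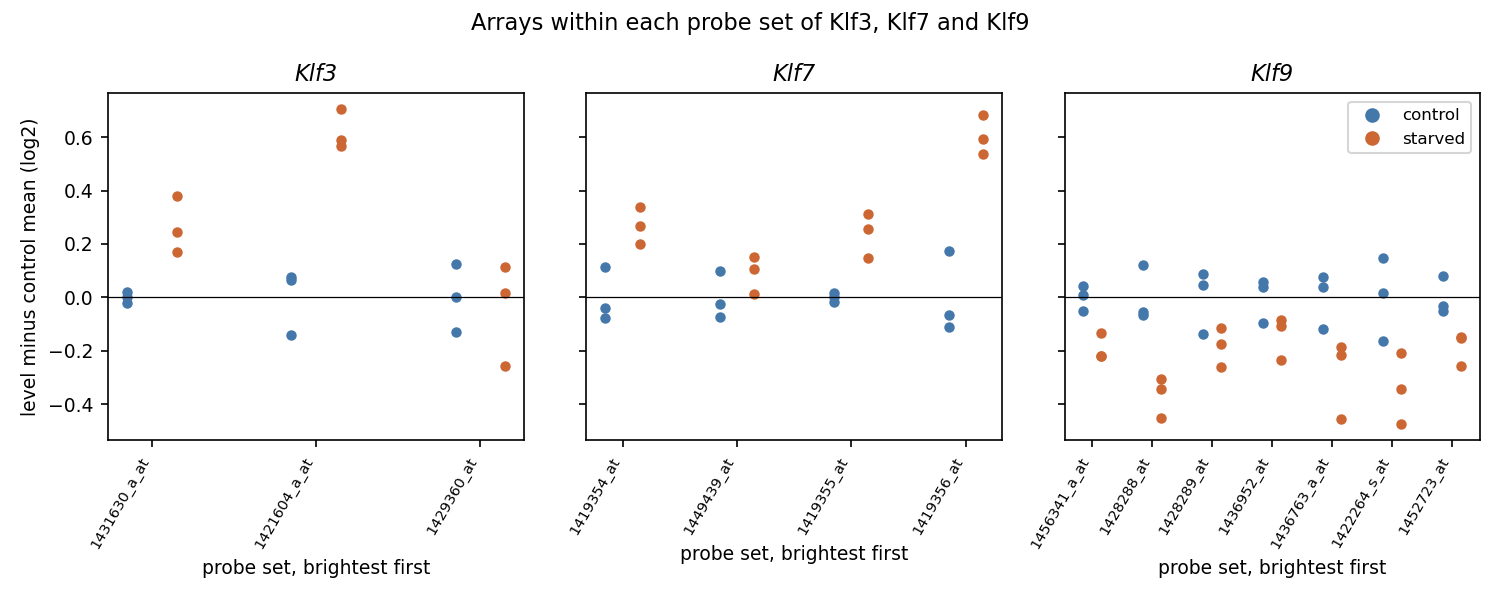
Level of each array minus the control mean of its probe set (log2) for the probe sets of Klf3, Klf7 and Klf9, control in blue and starved in orange. The changes of the 3 Klf3 probe sets run from -0.04 to 0.62, and the 7 of Klf9 all lie lower in starved cells, by 0.14 to 0.37.

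Counts for this list and those that follow stand beside 20.8% of all genes called higher and 20.1% called lower. Of the other KLF genes, Klf1, Klf12, Klf16 and Klf17 were measured, and limma called 0 of the 4 (0 at an unadjusted p under 0.05, and 0 without moderation). Klf16 read 7.23, 7.03 and 6.97 in control and 6.90, 6.75 and 7.02 in starved cells, with overlapping groups (-0.19 ± 0.09, adjusted p = 0.155). Klf12 and Klf17 were dim in both groups, and Klf8, Klf11 and Klf14 were not analysed here. Among the related SP factors, which recognise the same GC-rich sites, limma called 1 of 6 measured higher and 0 lower (0 lower at an unadjusted p under 0.05 too). That gene was Sp1, a general activator of GC-box promoters, which read 8.54, 8.62 and 8.34 in control and 9.06, 9.26 and 9.44 in starved cells and rose by 0.76 ± 0.11 (adjusted p = 0.00104). Its groups did not overlap, whereas those of Sp3 did (0.15 ± 0.07, adjusted p = 0.152). The dimmer probe set of Sp1 rose less, by 0.25 ± 0.07 (adjusted p = 0.0237). Sp4 was not called in its brightest probe set (-0.15 ± 0.10) but was called higher in its other (0.70 ± 0.12, adjusted p = 0.00285), which read 3.46 in control cells, under the dim limit.

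Corepressors and coactivators of KLF proteins moved in both directions, with 2 of 9 measured genes higher and 5 lower (median -0.23, against -0.01 over all genes). Sin3a, the corepressor partner of Klf9, Klf10 and Klf13, read 7.55, 7.46 and 7.37 in control and 8.14, 8.05 and 8.22 in starved cells and rose by 0.68 ± 0.07 (adjusted p = 0.000217). Ctbp2, a partner of Klf3, read 9.28, 9.27 and 9.25 in control and 8.72, 8.63 and 8.47 in starved cells and fell by 0.66 ± 0.07 (adjusted p = 0.000251). Neither gene had overlapping groups. Ctbp1 differed by -0.03 ± 0.06 without passing (adjusted p = 0.755). The other 2 probe sets of Sin3a rose as well, by 0.58 ± 0.07 and 0.73 ± 0.07. Kat2b, an acetyltransferase not called in its brightest probe set, was called higher in its other (0.36 ± 0.11, adjusted p = 0.0337).

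Of 5 measured genes listed as ubiquitin ligases that act on KLF proteins, an action not tested here, limma called 1 higher and 0 lower. At an unadjusted p under 0.05, 0 were lower. The gene called higher was Fbxo32, the muscle atrophy ligase atrogin-1. It read 7.58, 7.57 and 7.62 in control and 8.70, 8.63 and 8.49 in starved cells, with no overlap. It rose by 1.02 ± 0.07 (adjusted p = 2.14e-05), and Trim28 differed by -0.02 ± 0.07 (adjusted p = 0.873). These counts are of brightest probe sets: a dimmer probe set of Wwp1, a ligase known to act on Klf2 and Klf5, was called lower (-0.38 ± 0.08, adjusted p = 0.00728), while its brightest differed by 0.01 ± 0.06.

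Of 11 genes of the ERK5-MEF2 and FoxO routes, which are known to induce Klf2, Klf4 and Klf15, 2 were higher and 1 lower. Mef2d, a MEF2 factor, read 7.97, 8.02 and 8.10 in control and 8.61, 8.53 and 8.42 in starved cells and rose by 0.49 ± 0.07 in its brighter probe set (adjusted p = 0.000858). Its dimmer probe set was not called (0.01 ± 0.09, adjusted p = 0.959). Mapk7, which encodes ERK5, read 6.42, 6.43 and 6.56 in control and 6.13, 6.27 and 6.16 in starved cells and fell by 0.28 ± 0.07 (adjusted p = 0.0103). Groups did not overlap in either. Foxo3 differed by -0.08 ± 0.06 in its brightest probe set (adjusted p = 0.374), and its other probe sets were called lower (-0.18 ± 0.05 and -0.59 ± 0.18). Mef2a and Foxo1, not called in their brightest probe sets, had dimmer ones called higher, by 0.44 ± 0.09 in Mef2a and by 0.23 ± 0.07 and 0.23 ± 0.07 in Foxo1.

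Hormone receptors and genes that glucocorticoids induce, as they do Klf9 and Klf15, were higher in 2 of 9 and lower in 3. Over all genes 20.8% were higher and 20.1% lower. The phosphatase gene Dusp1 read 9.59, 9.56 and 9.66 in control and 8.77, 8.76 and 8.79 in starved cells and fell by 0.83 ± 0.05 (adjusted p = 2.04e-05). Fkbp5, a standard glucocorticoid target, read 8.16, 8.15 and 8.19 in control and 7.83, 7.63 and 7.77 in starved cells and fell by 0.42 ± 0.07 (adjusted p = 0.00151). Starved arrays were lower than all control arrays in both. Tsc22d3, which glucocorticoids also induce, was called higher in its brightest probe set (0.34 ± 0.07, adjusted p = 0.00404). Per1 was called lower (-0.29 ± 0.06, adjusted p = 0.00536). The kinase gene Sgk1 differed by -0.09 ± 0.07 without passing (adjusted p = 0.361). Medians of the hormone list and the ligase list (both 0.01) and of the ERK5-MEF2 and FoxO list (0.02) turned negative when arrays were centred on their medians, so none of these has a settled direction.

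Genes of the TGF-beta pathway, a known inducer of Klf10, were lower in 6 of 11 and higher in 2 (median -0.21). The receptor gene Tgfbr1 read 8.65, 8.61 and 8.58 in control and 7.85, 7.88 and 7.64 in starved cells and fell by 0.83 ± 0.07 (adjusted p = 9.09e-05); its other 2 probe sets were dim and not called. The ligand gene Tgfb1 read 5.53, 5.47 and 5.60 in control and 6.08, 6.31 and 6.17 in starved cells and rose by 0.65 ± 0.07 (adjusted p = 0.000281). Groups overlapped in neither. Tgfb3 differed by -0.13 ± 0.05 without passing (adjusted p = 0.107). Tgfbr2, singled out after its values were seen, fell in its brightest probe set (-0.27 ± 0.05) and rose in another (0.44 ± 0.06), so it has no settled direction.

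**Figure D4:**
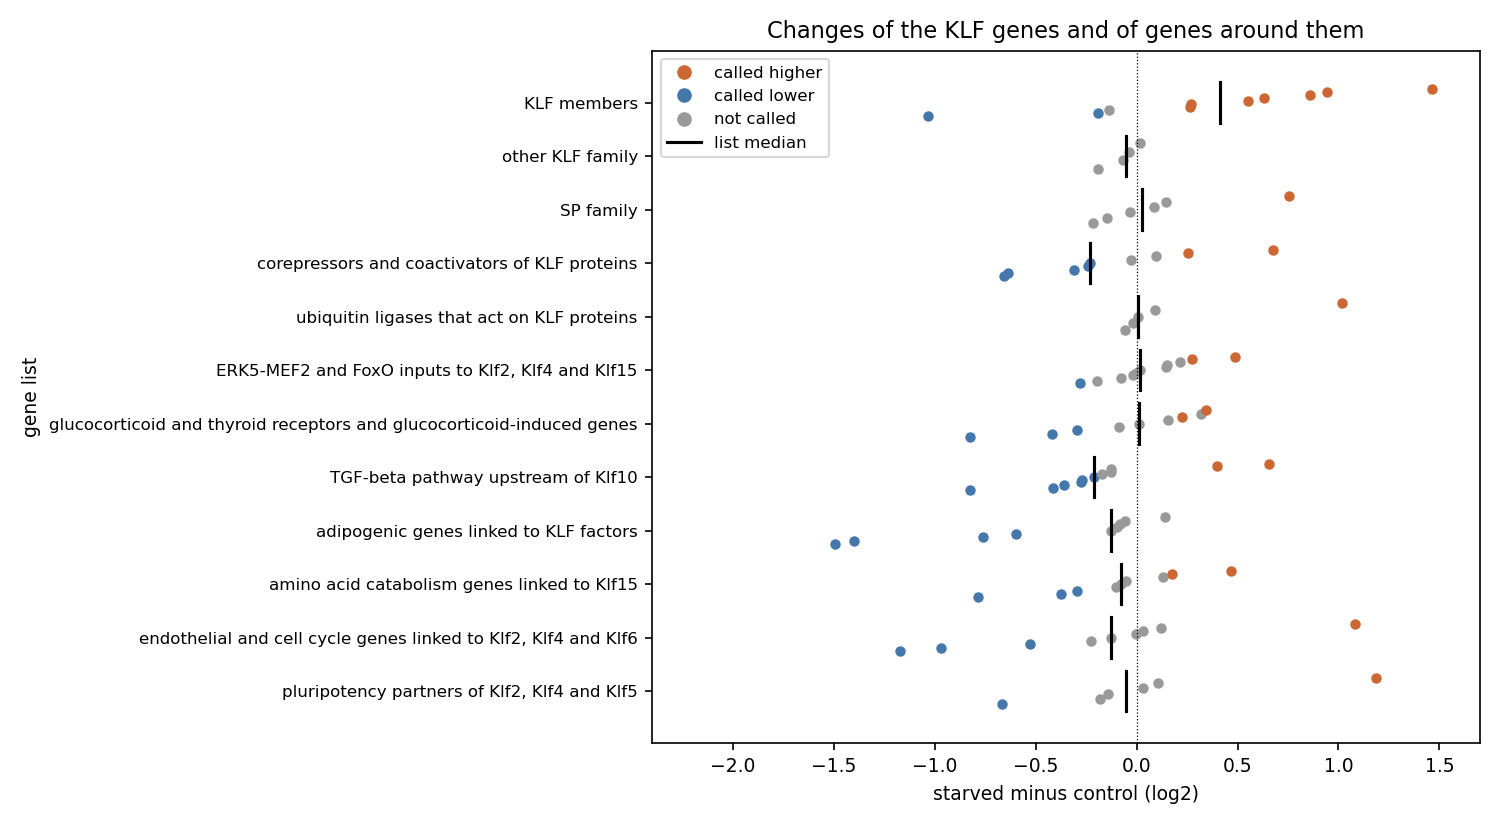
Change (starved minus control, log2) of each gene, at its brightest probe set, for the 10 KLF genes and 11 lists of genes around them; colours give the call and black bars the list medians. The median of the KLF genes is 0.41, and those of the lists lie between -0.23 and 0.03.

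Adipogenic genes linked to KLF factors were lower in 4 of 9 and higher in 0 by limma (median -0.13), with 0 higher at an unadjusted p under 0.05 as well. Cebpd, an early adipogenic factor, read 11.45, 11.49 and 11.46 in control and 10.02, 9.95 and 9.93 in starved cells and fell by 1.49 ± 0.05 (adjusted p = 1.87e-06). The fatty acid binding protein gene Fabp4 read 9.42, 9.36 and 9.19 in control and 7.99, 7.83 and 7.95 in starved cells and fell by 1.40 ± 0.08 (adjusted p = 9.91e-06). Starved arrays of both were more than 1 unit under every control array. Lpl differed by -0.06 ± 0.08 without passing (adjusted p = 0.596).

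Endothelial and cell cycle genes linked to Klf2, Klf4 and Klf6 were higher in 1 of 9 and lower in 3. The thrombomodulin gene Thbd, which KLF2 and KLF4 activate in endothelium, read 10.68, 10.68 and 10.75 in control and 9.53, 9.49 and 9.57 in starved cells and fell by 1.17 ± 0.06 (adjusted p = 5.29e-06). The cell cycle inhibitor gene Cdkn1a, a target of KLF4 and KLF6, read 10.61, 10.57 and 10.56 in control and 11.68, 11.66 and 11.64 in starved cells and rose by 1.08 ± 0.05 (adjusted p = 5.33e-06). Each pair of groups was far apart. Cdkn1b differed by 0.12 ± 0.08 in its brighter probe set without passing (adjusted p = 0.263), and its dimmer probe set rose by 0.37 ± 0.08 (adjusted p = 0.00767).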

How the data were processed

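Biotin-labelled cRNA from total RNA was hybridised to 6 Affymetrix mouse arrays. The deposited log2 values were produced by the authors with RMA from affy, per the submitters' processing notes, which give no versions. RMA quantile normalizes arrays, so a shift shared by most transcripts would not be visible.

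Of 22690 probe sets, 64 controls were set aside. The platform's annotation gave 1 gene for 20380 probe sets, several for 691 and none for 1555. The brightest probe set by mean over 6 arrays stood for a gene. Groups came from titles. The comparison used limma 3.58.1 under R 4.3.3, without covariates and two-sided, with Benjamini-Hochberg adjustment over 22626 probe sets, and was tested on simulated data. Deviations of same-numbered arrays from their group means had correlations of -0.09, 0.02 and -0.01. Taken around means of 3 arrays, these cannot exclude pairing. The labels state no pairing, so the main fit had none, and replicate number as a block was run as an alternative. The 10 genes and 11 lists (88 of 100 entries measured) were chosen with earlier results of these data known. From each list the text names the 2 called genes of largest change and the uncalled gene of highest mean. A few others, such as Tgfbr2, Tsc22d3 and Per1, were named after their values were seen. Alternatives covered scaling, dim probe sets, probe sets that can match several transcripts, moderation and array weights. They also covered probe sets per gene, threshold, block and each array left out. The number of arrays limits precision. Figures were drawn with matplotlib 3.10.9.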

Additional observations from a re-analysis of the deposited data

How the results depend on the processing

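No called change of a KLF probe set turned direction, and 18 of 27 had the same call in each alternative run; the other 9 were of Klf3, Klf7, Klf9 and Klf13. Against 19 KLF calls (13 higher, 6 lower), 12 passed an adjusted p of 0.01 (2 lower), 11 passed without probe sets of ambiguous match (2 lower) and 9 with 1 probe set per gene (7 higher, 2 lower); the last 2 settings test fewer probe sets. With the replicate number as a block there were 16 (3 lower), and the brightest probe set of Klf9 was among those lost (adjusted p = 0.0769). Leaving out an array gave 14 to 18 calls, 12 to 13 higher and 2 to 5 lower. Over all probe sets 8933 were called (4589 higher, 4344 lower). Without those that can match several transcripts 5716 were (2888 and 2828), and with 1 probe set per gene 5083 (2585 and 2498). With the block 8168 were called, and on leaving out an array 7691 to 8394 (3949 to 4429 and 3693 to 3965). With 3 arrays per group the exact permutation test cannot go below 0.1, and changes near the dim limit of 5 are less certain.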

Other observations

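Amino acid catabolism genes linked to Klf15 moved both ways, with 2 of 9 higher and 3 lower (median -0.08). The alanine aminotransferase gene Gpt2 read 8.44, 8.52 and 8.59 in control and 7.79, 7.70 and 7.70 in starved cells and fell by 0.79 ± 0.06 (limma adjusted p = 4.93e-05). Bckdha, a subunit of the branched-chain keto acid dehydrogenase, read 8.60, 8.60 and 8.59 in control and 9.06, 9.05 and 9.08 in starved cells and rose by 0.47 ± 0.05 (limma adjusted p = 0.000218). Groups overlapped in neither, and Gpt differed by -0.10 ± 0.07 without passing. On leaving out any 1 of the 6 arrays, 1 gene of the list was called higher in place of 2.

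Pluripotency genes that work with Klf2, Klf4 and Klf5 in embryonic stem cells were mostly dim, with 5 of 6 under 5 in both groups and 1 called in each direction. Nanog read 4.70, 4.40 and 4.70 in control and 5.87, 5.82 and 5.66 in starved cells, a rise of 1.18 ± 0.10 (limma adjusted p = 5.80e-05) from a dim level. Sox2 read 4.20, 4.41 and 4.81 in control and 3.71, 3.83 and 3.88 in starved cells, a fall of 0.67 ± 0.14 (limma adjusted p = 0.00650) within the dim range. The fall of Sox2 was not called without moderation of the spread. Tbx3 differed by 0.03 ± 0.06 without passing.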
